A study of Homo sapiens with 16 samples.

Results

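Binding of 3 NF-κB subunits was profiled by chromatin immunoprecipitation followed by sequencing (ChIP-seq) in T47D cells with a knockdown of DAB2IP, and the 6 knockdown libraries were compared with one another by the overlap of their peaks. T47D is an established estrogen receptor-positive breast cancer line of the Luminal A type. The 6 libraries were all immunoprecipitation libraries labelled DAB2IP KD (antibody P65 for RELA, RelB for RELB and NFkB2 for NFKB2, 2 replicates each), out of 12 immunoprecipitation libraries and 16 samples in the series; the empty-vector libraries were not used here. Every library came from cells with a DAB2IP knockdown, made with lentiviral short hairpin RNA and puromycin selection. The methods name more than one hairpin and do not say which was used for ChIP-seq, so the libraries stand for 1 transduced pool or more of a single line. Chromatin was fixed with disuccinimidyl glutarate and formaldehyde before sonication. The labels give 1 input library for each replicate number of the knockdown, and they do not say whether a replicate number marks a separate culture, so p-values measure only the spread between these libraries. Libraries are named below by antigen and replicate number, and libraries with the same replicate number are called libraries of a number.

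NF-κB is a family of dimeric transcription factors held in the cytoplasm until a signal releases them. In the canonical pathway, IκB kinase marks the inhibitor NFKBIA for destruction, which sets free dimers that contain RELA. In the noncanonical pathway, MAP3K14 and CHUK drive the processing of the NFKB2 precursor p100 to p52, which pairs with RELB. DAB2IP is a RasGAP, a protein that switches Ras off, and it is also known to restrain NF-κB signalling. The comparison asks whether peaks of 1 antibody recurred in the other library of that antibody more than in libraries of the other antibodies.

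The 6 lists differed in length far more than in the height of their peaks. On chromosomes 1 to 22 and X, and without intervals over 5000 bp, RELA replicate 1 held 105520 peaks, RELB replicate 1 held 75060 and NFKB2 replicate 1 held 574498. RELA replicate 2 held 687414 peaks, RELB replicate 2 held 552227 and NFKB2 replicate 2 held 665568. The first 2 are the short lists, and the other 4 lie close together. Covered sequence was 21.4 and 14.8 Mb in the short lists and 129 to 159 Mb in the other 4. Median fold enrichment at the summit, over the local background of the peak caller, was 2.50 and 2.65 in the short lists and 2.16 to 2.23 in the others. Few peaks passed a q (adjusted p) of 0.05: 43 in RELA replicate 1, 77 in RELB replicate 1, 123 in NFKB2 replicate 1, 113 in RELA replicate 2, 200 in RELB replicate 2 and 102 in NFKB2 replicate 2. Between 99.8% and 99.9% of the peaks of each list had a q of 1. Read totals are not part of the lists and the depth is unknown, but fold enrichment and p together gave back the number of fragments at each summit. Summits of 3 or fewer fragments made up 20.8% and 22.4% of the short lists and 45.7% to 81.7% of the other 4. In the short lists alone the recovered fragment numbers had been scaled down by the peak caller (by 0.910 and 0.982), as is done when the immunoprecipitation is deeper than its input.

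**Figure D1:**
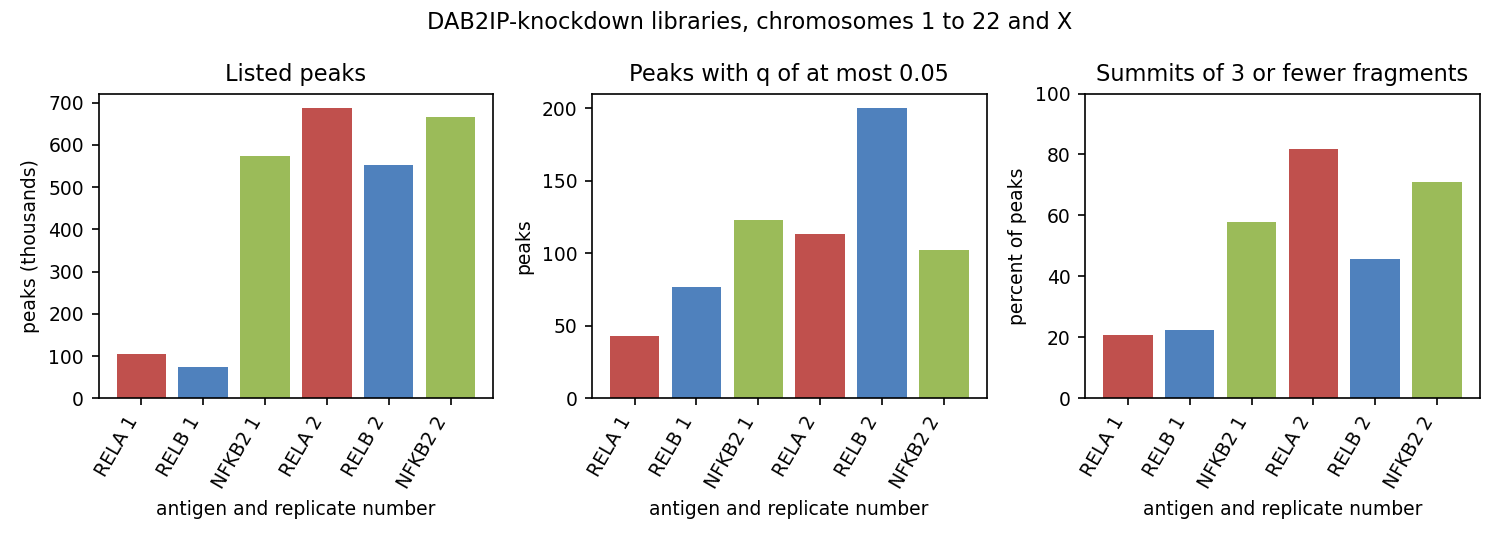
Bars give, for each knockdown library, the listed peaks in units of 1000, the number of peaks with a q of at most 0.05 and the percent of peaks whose summit rests on 3 or fewer recovered fragments, colored by antigen. RELA 1 and RELB 1 are the short lists in the left panel, while the middle panel runs from 43 to 200 peaks with the short lists lowest at 43 and 77.

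Peak number varied at least as much between the libraries of RELA and of RELB as between the antibodies. Mean peak numbers were 396467 ± 411461 for RELA, 313644 ± 337408 for RELB and 620033 ± 64396 for NFKB2 (SD, n = 2 libraries each), and for RELA and RELB the SD exceeded the mean. The log2 ratio of geometric means was −0.40 for RELB over RELA (exact two-sided permutation test, p = 0.667), 1.20 for NFKB2 over RELA (exact p = 1) and 1.60 for NFKB2 over RELB (exact p = 0.333, the smallest that 2 libraries against 2 can give). The sign of RELB over RELA rested on single libraries, with a value of 1.04 without RELB replicate 1 and 0.95 without RELA replicate 2. NFKB2 over RELA was 1.20 with all 4 libraries and −0.15 without RELA replicate 1. NFKB2 over RELB fell to 0.16 without RELB replicate 1.

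On average, overlap was higher within a replicate number than across numbers, and no separation by antibody was detected. As the measure, the Jaccard index was used, the bases covered in both lists as a percent of the bases covered in either. Within number 1 it was 1.16% for RELA and RELB, 1.68% for RELA and NFKB2 and 1.28% for RELB and NFKB2. Within number 2 it was 5.15% for RELA and RELB, 5.10% for RELA and NFKB2 and 4.79% for RELB and NFKB2. Pairs of the same antibody across numbers gave 0.779% (RELA), 0.581% (RELB) and 3.06% (NFKB2). The RELA and RELB values were below every value of these libraries with another antibody of their own number, while NFKB2 replicate 1 shared more with NFKB2 replicate 2 than with the 2 short lists of number 1. The mean of the 6 pairs within a number exceeded the mean of the 9 pairs across numbers by 1.77 percentage points, the largest value among the 10 ways of splitting the 6 libraries into 3 and 3 (exact one-sided permutation test, p = 0.1, the smallest possible). The mean of the 3 same-antibody pairs minus that of the 12 pairs of different antibodies was −0.829 percentage points (exact one-sided permutation test over 15 pairings, p = 0.667). It was 0.0912 without RELA replicate 2 and 0.159 without RELB replicate 2. All 3 same-antibody pairs cross numbers, so this difference also carries the separation of numbers and cannot by itself judge the antibody.

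The short lists set a ceiling on these values. The Jaccard index of 2 lists cannot exceed the covered length of the shorter over that of the longer, which is 9.30% for RELB replicate 1 with RELA replicate 2 and 13.4% for both RELA lists, against 81.2% or more for pairs of the 4 longer lists. Of the 3 same-antibody pairs, 2 contain a short list, and NFKB2 is the 1 antibody for which both lists are long. A second measure was therefore taken that does not carry this ceiling, the shared bases divided by the product of the covered shares of both lists, which is 1 when a base covered in 1 list is covered in the other no more often than bases at large. Over the span of the 23 chromosomes (3030 Mb), this ratio was 3.97 for RELA and RELB, 2.74 for RELA and NFKB2 and 2.90 for RELB and NFKB2 within number 1. Within number 2 the ratio was 2.08, 1.88 and 1.97 for the same antibody pairs. Across numbers the RELA lists reached 1.24, the RELB lists 1.32 and the NFKB2 lists 1.28, and the 6 pairs of different antibodies 1.22 to 1.32. The short lists thus have the highest ratio within their number, but across numbers they lie among the others. The span runs to the last peak end of each chromosome, so it includes sequence where no list can hold a peak, which raises every ratio. A ratio above 1 is therefore no sign by itself that lists are related, and the ratios only compare pairs.

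**Figure D2:**
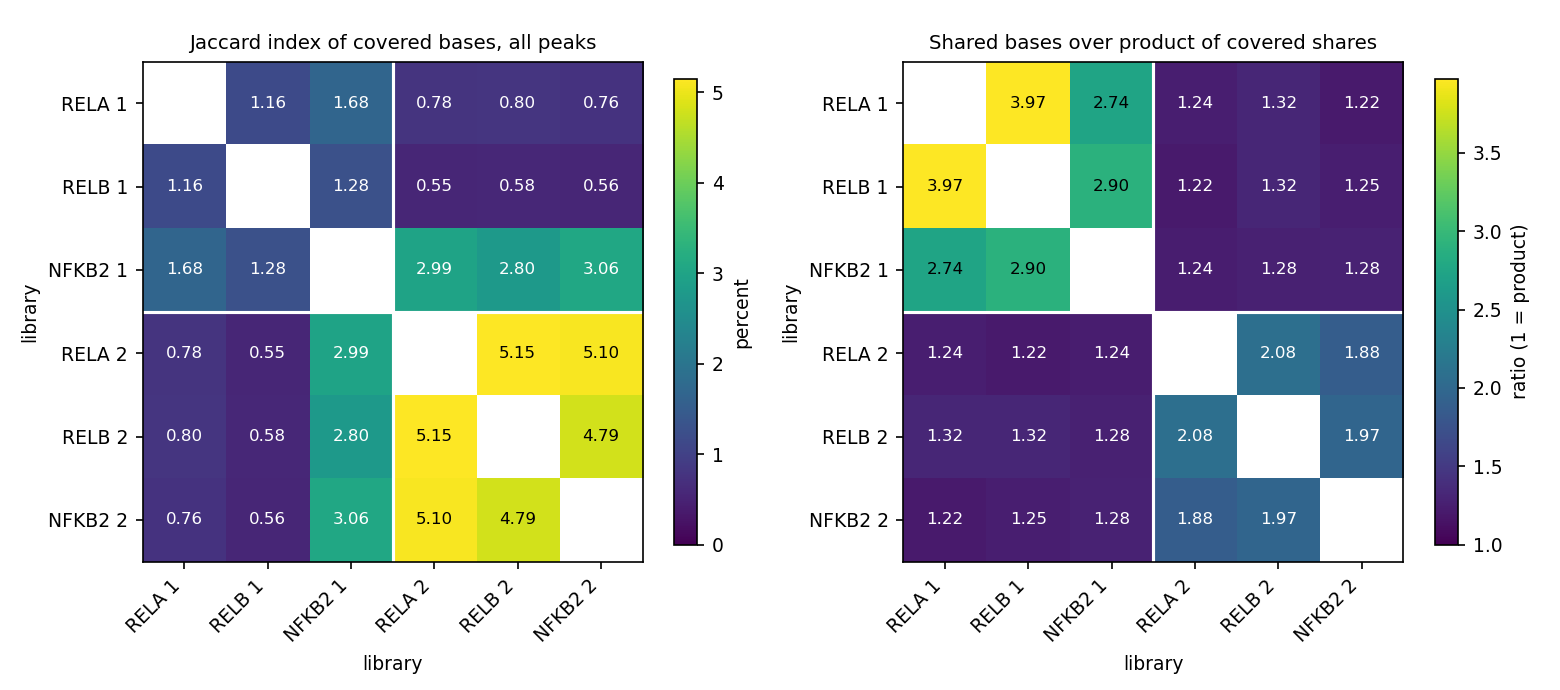
Each cell is a pair of knockdown libraries, named by antigen and replicate number, with the Jaccard index of covered bases in percent on the left and the ratio of shared bases to the product of covered shares on the right. White lines part the replicate numbers: on the right, cells inside a number read 1.88 to 3.97 and cells across numbers 1.22 to 1.32.

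Same-antibody pairs were then set against different-antibody pairs across numbers only, where neither shares a number. The mean Jaccard index was 1.47% ± 1.38 for the 3 same-antibody pairs and 1.41% ± 1.16 for the 6 different-antibody pairs (SD over pairs, which share libraries). This spread follows list length, with 2.80% to 3.06% for pairs without a short list and 0.547% to 0.805% for pairs with 1. It therefore does not measure the error of the difference. The difference was 0.0638 percentage points, the largest of the 6 orders in which the antibody names of number 2 can be arranged (exact one-sided permutation test, p = 0.167, the smallest possible). With the ratio to the product, the means were 1.28 ± 0.0374 and 1.25 ± 0.0388, a difference of 0.0277 (exact p = 0.167). For RELA replicate 1 the most similar list of number 2 was RELB (1.32) and not RELA (1.24). RELB replicate 1 was most similar to RELB (1.32), with 1.22 for RELA and 1.25 for NFKB2. NFKB2 replicate 1 was as similar to NFKB2 replicate 2 (1.28) as to RELB replicate 2 (1.28), and less so to RELA replicate 2 (1.24). On the Jaccard scale, NFKB2 replicate 1 shared 0.168 percentage points more with NFKB2 replicate 2 than with the mean of RELA and RELB replicate 2, against an SD of 0.138 between those 2 values.

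At equal list length the numbers stayed apart and no separation by antibody was detected. Each list was reduced to its 75060 peaks of smallest p, the length of the shortest list. Pairs within a number then had a Jaccard index of 1.01% to 1.22% and pairs across numbers 0.411% to 0.603%, so the ranges did not overlap. The ratio to the product was 3.73 to 4.04 within number 1 and 3.31 to 3.51 within number 2. Same-antibody pairs across numbers had a Jaccard index of 0.499% ± 0.0594 (n = 3) and different-antibody pairs across numbers 0.492% ± 0.0720 (n = 6), a difference of 0.00674 percentage points (exact one-sided permutation test over 6 orders, p = 0.5). The NFKB2 value changed its sign and became −0.00827 percentage points. At equal length, RELB replicate 2 was the most similar list of number 2 to all 3 libraries of number 1, with ratios of 1.73 for RELA, 1.68 for RELB and 1.82 for NFKB2.

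**Figure D3:**
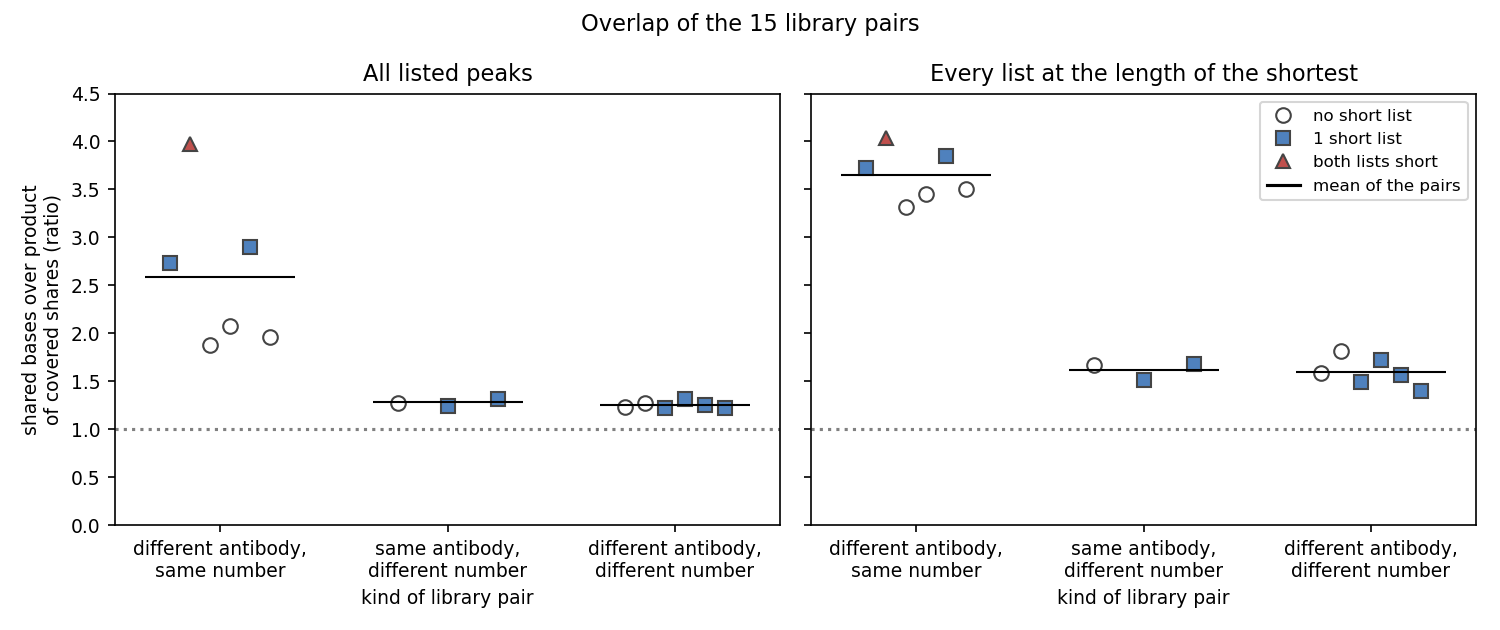
Each point is 1 of the 15 library pairs, placed by its kind on the x axis and by the ratio of shared bases to the product of covered shares on the y axis, for all listed peaks (left) and for lists of 75060 peaks (right). Markers give the number of short lists in a pair and lines the mean; pairs within a number sit at 1.88 to 3.97 (left) and 3.31 to 4.04 (right), above all pairs across numbers, while same-antibody and different-antibody pairs across numbers overlap in their range.

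The pattern held along the genome. On 23 of 23 chromosomes the mean ratio of the pairs within a number, between 2.09 (chromosome 2) and 4.27 (chromosome 22), exceeded that of different-antibody pairs across numbers, between 1.11 and 2.11. Same-antibody pairs exceeded different-antibody pairs across numbers on 13 of 23 chromosomes, and NFKB2 replicate 1 was closer to NFKB2 replicate 2 than to the mean of the other number 2 lists on 12 of 23 by this ratio. Chromosomes share their libraries, so these counts are a description. The ratio does not rank chromosomes: by the Jaccard index, the mean within a number was 2.83% on chromosome 22 and highest on X, at 4.93%.

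**Figure D4:**
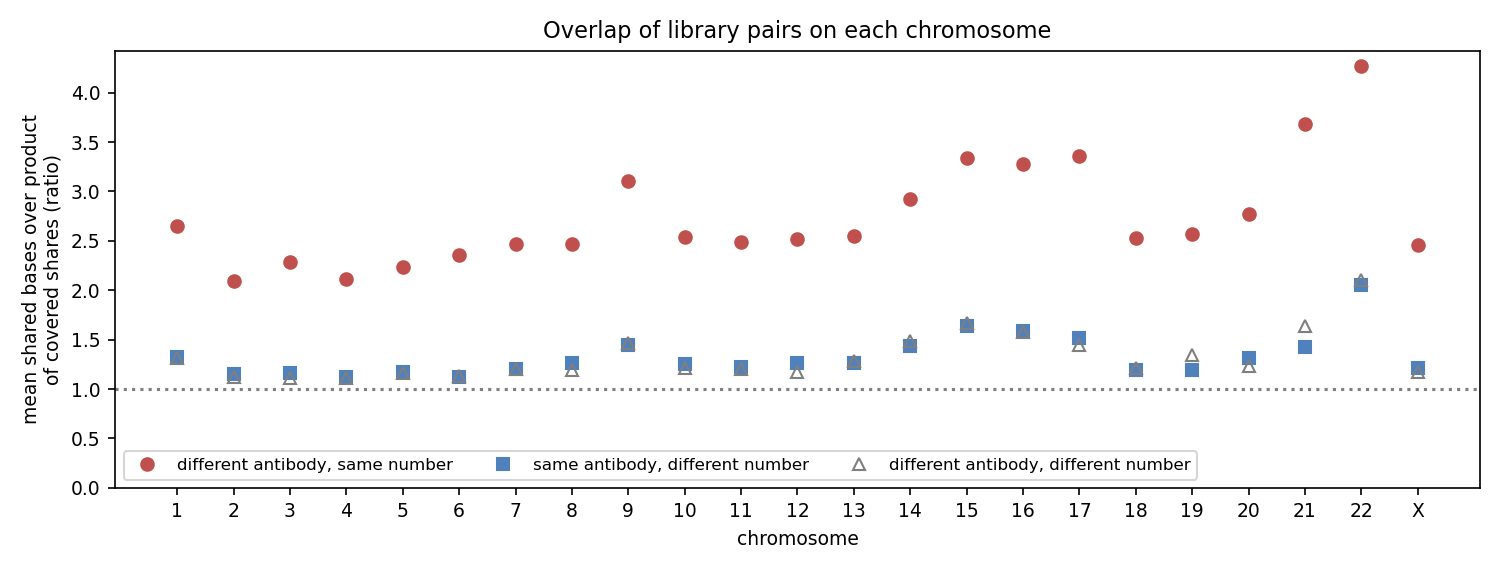
For each chromosome (x axis), points give the mean ratio of shared bases to the product of covered shares over pairs of different antibodies within a number (circles), the same antibody across numbers (squares) and different antibodies across numbers (triangles). Circles lie above the other marks on all 23 chromosomes, and squares and triangles change places from chromosome to chromosome.

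As shares of single lists, most peaks had no counterpart in any given other list. Of the peaks of NFKB2 replicate 1, 12.5% (exact 95% Clopper-Pearson interval 12.4% to 12.6%, counting error only) overlapped a peak of NFKB2 replicate 2, and the same share, 12.5% (12.4% to 12.6%), overlapped a peak of RELA replicate 2. Of the peaks of RELA replicate 1, 11.9% (11.7% to 12.1%) were found in RELA replicate 2, 11.5% (11.3% to 11.7%) in NFKB2 replicate 2 and 10.1% (9.88% to 10.2%) in RELB replicate 2. Of the peaks of RELB replicate 1, 9.86% (9.64% to 10.1%) were found in RELB replicate 2 and 11.6% (11.4% to 11.8%) in RELA replicate 2, whose list is longer. By contrast, 19.5% of the RELA replicate 1 peaks and 20.3% of the RELB replicate 1 peaks were found in NFKB2 replicate 1. These shares rise with the length of the list they are looked up in and with its covered share, 4.26% to 5.24% of the span in the 4 longer lists.

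Merging all lists where peaks shared at least 1 bp gave 2092905 regions. Of these, 79.1% were called in 1 library and 158 in all 6, which is 0.00755% of the merged regions. All 3 antibodies of number 1 called 1787 regions, and all 3 of number 2 called 37102. Both RELA libraries and none of the other 4 called 5596 regions (0.267%), and the same count was 2917 for RELB (0.139%) and 39262 for NFKB2 (1.88%). Pairs of different antibodies across numbers gave similar counts. RELA replicate 1 shared 5330 regions with NFKB2 replicate 2 alone and 4422 with RELB replicate 2 alone. RELB replicate 1 shared 3727 with RELA replicate 2 alone, more than with RELB replicate 2. NFKB2 replicate 1 shared 39358 with RELA replicate 2 alone, slightly more than with its own antibody, and 29986 with RELB replicate 2 alone. The count of regions in every library rested on the short lists, with 683 regions in the other 5 without RELA replicate 1, 856 without RELB replicate 1 and 261 without RELB replicate 2. In the 4 longer lists together, 9312 regions were called 4 times.

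Among peaks that recurred within a number, a background below 0.5 fragments was more frequent, although in number 1 their mean background was higher. The background is the fragment number that the peak caller took as the local level, recovered here from fold and p. Of RELA replicate 1 peaks shared with both other antibodies of the number, 35.4% had a background below 0.5 fragments, against 6.90% of those shared with neither. The shares were 37.8% against 7.53% in RELB replicate 1 and 37.3% against 13.7% in NFKB2 replicate 1. In number 2 they were 58.0% against 26.0% for RELA, 32.7% against 4.90% for RELB and 45.2% against 9.79% for NFKB2, so this share was higher in 6 of 6 libraries. The mean background did not follow it in number 1, where shared against unshared peaks had 3.20 against 1.04 fragments in RELA, 2.998 against 1.03 in RELB and 2.98 against 0.948 in NFKB2. In number 2 the means were 0.568 against 0.677, 0.995 against 1.18 and 0.777 against 0.838. Summits of shared peaks lay in protein-coding genes less often in all 6 libraries: 29.8% to 30.8% against 42.6% to 43.6% in number 1, and 36.2% to 36.4% against 42.7% to 42.8% in number 2. The median number of fragments at shared summits was 4 in both short lists, 3 in NFKB2 of either number, 2 in RELA replicate 2 and 3 in RELB replicate 2. Shared peaks were also longer, and a longer peak meets another more easily. Median lengths were 198 to 273 bp against 160 to 181 bp in number 1 and 253 to 261 bp against 162 to 185 bp in number 2. The part of length in these contrasts was not tested. The 3 libraries of a number have a single labelled input, and whether the shared input took part in the overlap within a number was not tested.

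**Figure D5:**
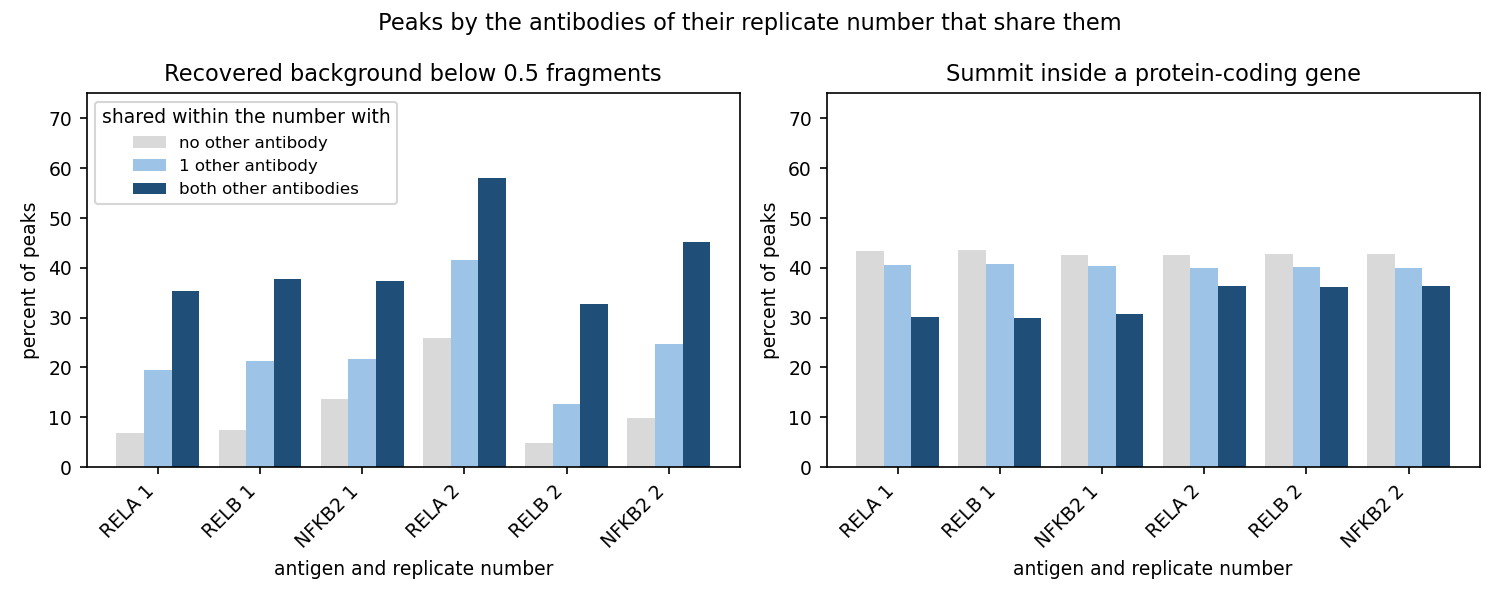
Bars give the percent of peaks with a recovered background below 0.5 fragments (left) and with a summit inside a protein-coding gene (right) in each knockdown library, for peaks shared with no, 1 or both other antibodies of the replicate number. The dark bars (both) are the highest on the left (32.7% to 58.0%) and the lowest on the right (29.8% to 36.4%) in all 6 libraries.

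Most of the strongest regions passed in a single library, and those that passed in several lay outside protein-coding genes. Peaks with a q of at most 0.05 merged to 442 regions, of which 354 passed in 1 library, 88 in 2 or more and 11 in all 6. A protein-coding gene was overlapped by 44 of the 442 regions (9.95%), against 42.7% of all merged regions, and by 0 of the 88. The median distance of the 442 regions to a protein-coding gene was 749 kb, against 11.2 kb for all merged regions. The 30 regions that passed in 5 or 6 libraries fell on 7 chromosomes, each of them over 100 kb from a protein-coding gene. Both RELA libraries passed at 15 regions, both RELB libraries at 37 and both NFKB2 libraries at 37, and for each antibody 1 of these passed in no library of another antibody. Of the 123 strong peaks of NFKB2 replicate 1, 37 met a strong peak of NFKB2 replicate 2, 37 met one of RELB replicate 2 and 38 met one of RELA replicate 2. Of the 77 of RELB replicate 1, 37 met a strong peak of RELB replicate 2, 36 of RELA replicate 2 and 34 of NFKB2 replicate 2. Of the 43 of RELA replicate 1, 15 met a strong peak of RELA replicate 2, 14 of NFKB2 replicate 2 and 13 of RELB replicate 2. Within number 1, 15 strong peaks of RELA met one of RELB and 17 one of NFKB2, and 42 of RELB met one of NFKB2. In number 2 these counts were 46, 49 and 44. The Jaccard index of strong peaks was 7.99% to 19.8% within a number and 4.86% to 12.7% across numbers, so these ranges overlapped.

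Among the 11 regions that passed in all libraries, the leading one was chr16:34576398-34576641 in hg38 coordinates, near the centromere and 187 kb from the nearest protein-coding gene. Its summit held 201 fragments over a background of 85.0 in RELA replicate 1, 195 over 86.0 in RELB replicate 1 and 195 over 82.2 in NFKB2 replicate 1. In number 2 it held 174 over 57.2 for RELA, 229 over 102 for RELB and 202 over 77.7 for NFKB2. Fold enrichment was thus 2.14 to 3.01, and background as well as signal was high in every library. The next regions were chr17:23016277-23016560 (fold 2.71 to 3.65), chr16:46386301-46386604 (fold 1.92 to 3.34), chr1:125183598-125183822 (fold 2.15 to 2.63) and chr1:143212900-143213306 (fold 1.74 to 2.78). All 4 lie outside protein-coding genes, and reads from repeats near centromeres can be shared among near-identical copies, so their placement is uncertain.

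Regions called for a single antibody held fewer fragments than these. For RELA the first was chr16:32713751-32713993, with 9 fragments in replicate 1 (fold 5.30) and 5 in replicate 2 (fold 3.92), 37.6 kb from TP53TG3, a gene with near-identical copies. The second lay in FKBP5 (chr6:35705523-35706123), which encodes a co-chaperone of the glucocorticoid receptor, with 8 fragments (fold 4.08) and 5 fragments (fold 3.59). Neither passed a q of 0.05 in either library. For RELB the first was chr1:143255561-143255713, with 79 fragments over a background of 22.3 and 105 over 30.1, and it passed q in both libraries (−log10 q of 12.2 and 19.2). It lies 647 kb from the nearest protein-coding gene and in the same stretch of chromosome 1 as a region that passed in every library. For NFKB2 the first was chr12:35181551-35182195, 1153 kb from a protein-coding gene. It had 5 fragments over a background of 0.0555 and 3 over 0.0512 (−log10 q of 3.76 and 0.614, where 1.30 is the threshold). Both backgrounds are the lowest held by at least 100 peaks of their list, so the q of this region rests on the floor of the background.

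Gene starts were looked at next, with a promoter taken as 1 kb on either side of the start. RefSeq starts were at hand for 15812 of 19821 protein-coding genes and for none on chromosome 8, which the promoter counts therefore leave out. A promoter peak was found for 6.45% of them in RELA replicate 1, 6.11% in RELB replicate 1, 31.6% in NFKB2 replicate 1, 30.9% in RELA replicate 2, 23.4% in RELB replicate 2 and 29.5% in NFKB2 replicate 2. All 3 antibodies met at 56 promoters in number 1 (0.354%) and at 724 in number 2 (4.58%), while 61.9% and 43% had a peak of none. Over the 6 libraries, 28.3% of promoters were called in 0, 33.3% in 1, 24.1% in 2, 11.1% in 3, 2.7% in 4 and 0.481% in 5. Both libraries of an antibody met at 2.26% of promoters for RELA, 1.45% for RELB and 10.2% for NFKB2. Without a peak in any other library they met at 83 promoters for RELA (0.525%), 30 for RELB (0.19%) and 524 for NFKB2 (3.31%). Pairs of different antibodies across numbers gave lower counts for RELA replicate 1, 37 with RELB replicate 2 and 69 with NFKB2 replicate 2. For RELB replicate 1 they were higher, 70 with RELA replicate 2 and 63 with NFKB2 replicate 2. For NFKB2 replicate 1 they lay on either side, 591 with RELA replicate 2 and 378 with RELB replicate 2.

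The RELA promoters of smallest p were MS4A5, H2BC11 and H2AC11 (neighboring histone genes that share these peaks), SLC17A6 (a vesicular glutamate transporter) and TAB3, an adaptor of the kinase TAK1 in the canonical pathway. TAB3 had 5 fragments (fold 2.95) in RELA replicate 1 and 4 (fold 2.95) in RELA replicate 2, with summits at −368 and −317 bp from the start, and no peak in the other 4 libraries. The RELB promoters were LDLRAD4, SYPL1, EP300 (a histone acetyltransferase and coactivator), NPAP1 and ANKRD18B. EP300 had 5 fragments in both RELB libraries, with fold 2.91 and 3.09, but the summits lay at −1022 and −718 bp from the start. The NFKB2 promoters were GAL3ST2, PPFIBP1, PIF1 (a DNA helicase), C15orf40 and FAM193A. PIF1 had 5 fragments (fold 3.05) and 6 fragments (fold 2.87) in the NFKB2 libraries, with summits 316 and 227 bp after the start. All 15 rested on 4 to 8 fragments per library, and all had a q of 1.

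Promoters shared by the 3 antibodies of number 1 were led by TAF11L6, ZCCHC2, PLCXD1, GAGE13 and NOX4 (a subunit of an NADPH oxidase), and those of number 2 by AMY1C, AGBL3, MYH2, BRWD3 and EPHB6 (a receptor of the ephrin family without kinase activity). TAF11L6, GAGE13, AMY1C and the histone genes belong to families with near-identical copies, and PLCXD1 lies in the part of X shared with Y, so their peaks are uncertain. Peaks in all 6 libraries were found at 4 promoters (0.0253%): RPLP1, a protein of the ribosomal stalk, HIC2, a transcriptional repressor, EPM2A, the glycogen phosphatase laforin, and NOX1, another NADPH oxidase. NOX1 had 3, 2 and 2 fragments for RELA, RELB and NFKB2 in number 1 and 2, 3 and 4 in number 2. RPLP1 had 5, 5 and 4 fragments in number 1 and 2, 5 and 4 in number 2. EPM2A had 5, 3 and 2 fragments in number 1 and 3, 4 and 2 in number 2. HIC2 had 3, 5 and 1 fragments in number 1 and 4, 2 and 2 in number 2. At each of these 4 promoters every library had a q of 1.

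The promoters below are shown because peaks of several antibodies met within 1 kb of their start and because they hold letters of the κB motif. They are the 300 bases from 250 before to 50 after the start, from RefSeq on GRCh38.p14, written 5′ to 3′ on the strand of the gene. Capitals mark GGG, any 5 bases and CC on either strand, and neighboring matches may run together. Of the promoters named above that the 3 antibodies of a number or all 6 libraries shared, the 5 with most matches are shown, ties taken by name. The promoters named for a single antibody were not part of this choice. HIC2 is at chr22:21417121-21417420 (plus strand), PLCXD1 at chrX:276106-276405 (plus), AGBL3 at chr7:134986258-134986557 (plus), BRWD3 at chrX:80809828-80810127 (minus) and NOX1 at chrX:100874310-100874609 (minus).
HIC2: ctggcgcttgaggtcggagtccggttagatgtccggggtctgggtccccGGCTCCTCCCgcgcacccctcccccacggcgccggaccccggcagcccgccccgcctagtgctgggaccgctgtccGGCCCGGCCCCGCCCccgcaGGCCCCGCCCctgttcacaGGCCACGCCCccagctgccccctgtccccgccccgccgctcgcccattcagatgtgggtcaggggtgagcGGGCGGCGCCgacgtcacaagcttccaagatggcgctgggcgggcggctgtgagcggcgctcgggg
PLCXD1: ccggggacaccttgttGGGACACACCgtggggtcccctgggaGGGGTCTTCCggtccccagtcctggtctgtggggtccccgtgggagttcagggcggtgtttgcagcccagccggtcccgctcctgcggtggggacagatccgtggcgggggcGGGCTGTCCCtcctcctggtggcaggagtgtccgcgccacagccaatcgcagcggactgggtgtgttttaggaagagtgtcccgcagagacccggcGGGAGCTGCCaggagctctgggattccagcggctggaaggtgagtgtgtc
AGBL3: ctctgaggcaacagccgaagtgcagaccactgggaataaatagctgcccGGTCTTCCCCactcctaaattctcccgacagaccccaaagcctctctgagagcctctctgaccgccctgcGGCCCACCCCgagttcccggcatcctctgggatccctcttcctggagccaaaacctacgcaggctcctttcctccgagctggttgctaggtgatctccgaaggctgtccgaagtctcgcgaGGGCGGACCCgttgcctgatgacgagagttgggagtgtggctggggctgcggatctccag
BRWD3: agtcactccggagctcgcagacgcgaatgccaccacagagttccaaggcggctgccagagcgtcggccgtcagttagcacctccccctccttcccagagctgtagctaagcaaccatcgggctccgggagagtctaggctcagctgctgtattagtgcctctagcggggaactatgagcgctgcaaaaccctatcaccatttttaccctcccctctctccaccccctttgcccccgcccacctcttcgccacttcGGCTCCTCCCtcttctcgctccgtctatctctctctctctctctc
NOX1: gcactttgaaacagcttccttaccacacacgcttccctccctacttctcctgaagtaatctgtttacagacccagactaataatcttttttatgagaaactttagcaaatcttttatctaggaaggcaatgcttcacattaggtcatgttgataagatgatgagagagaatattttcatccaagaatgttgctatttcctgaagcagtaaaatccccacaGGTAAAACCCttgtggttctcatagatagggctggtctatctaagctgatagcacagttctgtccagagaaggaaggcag
HIC2 held 6 matches, PLCXD1 4, AGBL3 3, and BRWD3 and NOX1 1 each. No library had a peak over the HIC2 window itself, since its summits lay 510 bp or more from the start, while PLCXD1 was covered by RELB replicate 1, NOX1 by RELB and NFKB2 replicate 1, and AGBL3 and BRWD3 by RELA and RELB replicate 2. RPLP1, EPM2A, TAF11L6, GAGE13, AMY1C, MYH2 and EPHB6 held no match in their windows, and NOX4 and ZCCHC2 held 1 each.

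Over all 15812 promoter windows, this motif (GGG, any 5 bases, CC) was found on either strand in 67.5%, so a match is common. In number 1 it was found in 67.3% of windows with no peak, 68.6% with a peak of 1 antibody, 68.9% with 2 and 7 of 8 with 3. In number 2 the shares were 68.6% with no peak, 63.7% with 1 antibody, 59.3% with 2 and 22 of 44 with 3. The median GC content was 63.0% with no peak and 59.7% with 3 antibodies in number 2, and 62.7% and 59.7% in number 1. The motif share thus fell in number 2, while in number 1 it changed little up to 2 antibodies and its last value rests on 8 windows. The κB site of the immunoglobulin kappa enhancer, 1 form of this motif, was found on either strand in 30 windows (0.19%), too few to compare by the number of antibodies.

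The share of known NF-κB targets with a peak was below that of genes at large in each of the 6 lists, a difference that was not tested. A gene was counted when a peak lay within 1 kb of its span, which held for 54.7%, 49.8% and 84.8% of 19821 protein-coding genes in RELA, RELB and NFKB2 replicate 1, and for 84.6%, 78.7% and 82.2% in RELA, RELB and NFKB2 replicate 2. Of 30 known NF-κB targets, 9, 8 and 20 had a peak in RELA, RELB and NFKB2 replicate 1, and 22, 18 and 23 in replicate 2. These shares run from 26.7% to 76.7%, each below that of all genes in its library. Gene length was not matched, and the list holds short genes such as CXCL1 (1.92 kb) and IER3 (1.35 kb). All 3 antibodies met at 5 of the 30 in number 1 and 16 in number 2, against 38.8% and 69.9% of all genes. The 5 of number 1 were among the 16 of number 2: BIRC2 and BIRC3, which encode inhibitors of apoptosis, CFLAR, an inhibitor of caspase 8, TNIP1, a partner of TNFAIP3, and SOD2, the mitochondrial superoxide dismutase. SOD2, the longest of them (93.2 kb), had 3, 3 and 14 peaks for RELA, RELB and NFKB2 in number 1 and 18, 19 and 27 in number 2. NFKBIA, the inhibitor under direct control of RELA, had 0, 0 and 1 peaks in number 1 and 2, 0 and 1 in number 2. TNF, LTB, CCL2, CCL5 and IER3 had no peak in any library.

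Targets ascribed to the noncanonical pair RELB and NFKB2 had peaks at shares near those of all genes. Of 6 genes, RELA, RELB and NFKB2 had peaks at 4, 3 and 5 in number 1 (all genes 54.7%, 49.8% and 84.8%) and at 5, 4 and 5 in number 2 (all genes 84.6%, 78.7% and 82.2%). CXCL12, a chemokine of lymphoid stroma, had 1, 2 and 4 peaks in number 1 and 4, 2 and 2 in number 2. CXCL13, which draws B cells, had 4, 1 and 15 peaks in number 1 and 21, 20 and 34 in number 2, over 100 kb. TNFSF13B, the B cell survival factor BAFF, had 1, 1 and 10 peaks in number 1 and 17, 12 and 7 in number 2. Counts within a number move with the length of the lists, so they do not rank the antibodies. Of 9 further subunits, inhibitors and kinases, 6, 6 and 8 had a peak in number 1 and 8, 8 and 8 in number 2. As shares these were 66.7%, 66.7% and 88.9% against 54.7%, 49.8% and 84.8% of all genes in number 1, and 88.9% against 84.6%, 78.7% and 82.2% in number 2, so in number 2 and for NFKB2 in number 1 they lay near all genes. NFKB1, the subunit p105, had 4, 3 and 24 peaks in number 1 and 25, 37 and 35 in number 2. NFKBIB, an inhibitor of the IκB family, had none in any library.

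At the genes of the antigens, RELB (36.7 kb) had 2, 0 and 5 peaks for RELA, RELB and NFKB2 in number 1 and 7, 7 and 14 in number 2. NFKB2 (8.42 kb) had 1 peak in NFKB2 replicate 1 and 3 in RELA replicate 2, and none in the other 4. RELA (10.3 kb) had 0, 1 and 3 peaks in number 1 and 2, 0 and 0 in number 2. DAB2IP itself, the target of the knockdown, had 5, 5 and 23 peaks in number 1 and 20, 9 and 10 in number 2 over 218 kb, none of them within 1 kb of the start. Among 8 genes whose binding the study takes up, all 3 antibodies met at PSENEN (a subunit of γ-secretase), SRSF1 (a splicing factor) and TBCA (a tubulin cofactor) in number 1, which is 37.5% against 38.8% of all genes. In number 2 they met at 6 of the 8, against 69.9% of all genes. PSENEN had 1 peak in each library of number 1 and 1, 2 and 4 in number 2, over 1.87 kb. BIRC5 (survivin) had 0, 0 and 4 peaks in number 1 and 2, 1 and 2 in number 2. CDK5 had 1 peak in NFKB2 replicate 1, 3 in RELA replicate 2 and none in the other 4. NOP10, a protein of small nucleolar particles, had 0, 0 and 3 peaks in number 1 and 1, 2 and 1 in number 2. TPI1, an enzyme of glycolysis, had 0, 1 and 2 peaks in number 1 and 2, 2 and 3 in number 2. TMEM147 had 1 peak, in RELB replicate 2. NOP10, TPI1, TMEM147 and PSENEN were picked by the study with the use of these libraries, so their peaks are not independent evidence, while the other four came from other data. No gene of these lists had a peak with a q of 0.05 or less; the highest −log10 q was 0.417, for RELB replicate 2 at a noncanonical target.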

How the data were processed

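ChIP-seq peak lists of 6 DAB2IP-knockdown T47D libraries (RELA, RELB and NFKB2, 2 replicates each) were analysed. Groups and replicate numbers came from the sample labels. The authors mapped paired-end reads to hg38 with BWA (0.7.12) and called peaks per library against an input with MACS2 (2.1.0), as given in the submitters' processing notes and the study's methods. How inputs were paired with libraries is not given in the sources used here. The deposited positions (other: start, end and summit) are in base pairs. The deposited score equals 10 times the −log10 p without its decimals. As a ratio, the authors' files give the summit's fold enrichment. The authors' lists also hold −log10 p and −log10 q values, and their smallest −log10 p corresponded to a p-value of 0.05. Fold and p were used to describe and rank peaks within a list and to recover fragments.

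Chromosomes 1 to 22 and X were kept, repeated intervals were counted once and intervals over 5000 bp were left out. Bases covered were compared by the Jaccard index and by the ratio to the product of covered shares, with exact permutation tests over libraries, and merged regions needed 1 shared bp. Fragments and background followed from fold (pseudocount 1) and the Poisson p, were whole (within 0.002 of the −log10 p) for at least 99.99% of peaks of each list, and were tested on simulated data, as were the overlap counts. Genes and starts came from RefSeq (GRCh38.p14), with other scaffolds left out. Ties in p were broken at random with a fixed seed. Named genes were the lists of antigens, study genes and pathway genes, the 5 promoters per antibody and per number with the best lowest p, those in most libraries, and the regions ranked by lowest q, then p. Members and lists were chosen with earlier results of these data known. The tools were scipy 1.17.1, pandas 2.3.3, numpy 2.4.6 and matplotlib 3.10.9 under Python 3.11.15.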

Additional observations from a re-analysis of the deposited data

Results flagged for a closer look

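Intervals over 5000 bp, which no comparison above uses, were found in 2 of the 6 lists. RELA replicate 2 held 1281 of them, covering 32.3 Mb, and NFKB2 replicate 2 held 1308, covering 34.4 Mb, with a longest interval of 1186 kb in both. The other 4 lists held 0, including RELB replicate 2 of the same number, whose longest interval was 2.44 kb. With these intervals kept, the separation of replicate numbers was 2.59 percentage points in place of 1.77.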

How the results depend on the processing

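The separation of replicate numbers kept its direction and its exact p of 0.1 in every alternative with 6 libraries except that with antibody as a block (p = 0.25, the smallest of its 4 splits), at 0.640 to 4.19 in the units of each measure, and was 0.803 to 3.38 with 1 library left out. Whether the numbers pair libraries was checked by the difference of replicate 1 and 2 in log2 of peaks plus 1 per 1 Mb. These differences correlated between antibodies at 0.50 to 0.61 over 2940 bins. The differences of RELA and RELB also carry the short lists of number 1, and the part of list length was not tested. With 2 numbers and no label that says what they mark, the correlation is at most a hint from the data. With replicate number as a block, the antibody separation turned from −0.829 to 0.0638 (exact p = 0.167). In blocked settings chosen after seeing the data it was 0.0277 with the ratio to the product, 0.00674 at equal list length (0.0237 with the ratio) and 0.0383 with 1 fragment fewer and the ratio. The fragment was taken only from peaks of the 4 longer lists, and the short lists stayed as they were. The block left the log2 peak number ratios as they were (exact p = 0.5, 1 and 0.5). Leaving out 1 library gave an antibody separation of −1.68 to 0.159, above 0 without RELA or RELB replicate 2, and leaving out both short lists, also chosen after seeing the data, gave −1.11.

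The likeness of NFKB2 replicate 1 to NFKB2 replicate 2 (0.168) turned to −0.00827 at equal list length and −0.0327 there with the ratio (chosen after seeing the data), and was 1.28 with q of at most 0.05, 0.568 as a share of the shorter list, 0.568 with peaks overlapping by 50%, 0.0234 with the ratio, 0.00415 with the ratio and 1 fragment fewer (also chosen after seeing the data), and 0.0114 with long intervals kept. Counts followed list length by construction. At equal length, the 3 antibodies met at 368 (number 1) and 401 (number 2) regions, RELA, RELB and NFKB2 alone at 1014, 913 and 1105, and all 6 libraries at 30. With q of at most 0.05 these were 14, 36, 1, 1, 1 and 11, and with 50 bp on either side of the summit 594, 8097 and 44 for the first, second and last, and 24867 for NFKB2 alone. Without 1 library, 179 to 856 regions were in all others. RELA-only counts without a library of another antibody were 5802 to 7333, RELB-only 3087 to 3848 and NFKB2-only 40537 to 50685; none can be given without a library of the same antibody. Promoters with all 3 antibodies fell from 56 to 8 and from 724 to 9 at equal length, and to 8 and 44 in the window of 250 bp before to 50 bp after the start. With q of at most 0.05 the log2 peak number ratio was 0.83 for RELB over RELA and −0.15 for NFKB2 over RELB, and without 1 library the ratios were −1.84 to 1.04 for RELB over RELA, −0.15 to 2.55 for NFKB2 over RELA and 0.16 to 3.04 for NFKB2 over RELB. Beyond list length, the causes were not tested. Read depth is unknown, and most summits rest on few fragments, so a peak missing from a list does not show that the site was unbound.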
